A study of Mus musculus with 6 samples.

Results

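The ATF4 amino acid and one-carbon genes are 40 genes for amino acid uptake, serine and folate metabolism, the synthesis of other amino acids and the charging of tRNA, together with Atf4 itself and other regulators of the same response. They were found by symbol among the 46603 gene identifiers that each library lists. All 40 were present and all 40 passed the filter on low counts, against 15009 genes in all. The list was put together with the KO to WT contrast of these libraries already seen, so the values of its members are a description. For a member, "rose", "fell" and "not called" say on which side of the threshold it lay in the fit over all genes, and no p-value is given.

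The series used RNA sequencing to compare beta-actin knockout cells (KO, 3 libraries) with wild-type cells (WT, 3 libraries), all of them mouse embryonic fibroblasts. Both kinds of cell came from BALB/c embryos of 10.5 days and were obtained from 1 outside laboratory. Before RNA was taken, all cells of both genotypes had spent 6 days in a medium that drives fibroblasts toward the adipocyte fate through insulin, dexamethasone, IBMX (an inhibitor of phosphodiesterases) and ascorbic acid. No library from before this treatment is part of the comparison, so a difference that was already there cannot be told apart from one that arose in the medium. The labels do not say whether the 3 libraries of a genotype are separate cultures, embryos or clones, and p-values therefore measure the spread between these samples, which may be technical.

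ATF4 is a transcription factor of the basic leucine zipper family, made when phosphorylation of the initiation factor eIF2 slows translation in general but favours the reading of Atf4 mRNA. The kinases that phosphorylate eIF2 sense uncharged tRNA, unfolded protein, viral RNA or a lack of heme, and the programme is called the integrated stress response. ATF4 pairs with other factors, among them members of the C/EBP family, on a composite DNA element in front of genes that take up and make amino acids, load them onto tRNA and supply carbon units through folate. Because ATF4 is controlled largely at translation, its mRNA level is a poor guide to its protein, which was not measured here.

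The composite element is the stretch of DNA through which many of these genes are known to answer ATF4, and it is shown here for the members that carry it in front of their start. RefSeq promoter windows of build GRCm38.p6, 250 bases before to 50 bases after a start, were available for 32 of the 40 members. The letters TGATGNAA were searched on both strands. They occurred in 13 of the 32 members (40.6%) and in 4.51% of the 27025 genes of the table (4.13% of its protein-coding genes). The members were listed as ATF4-driven genes, so a share above that of other genes shows nothing of its own. The narrower TGATGCAA, which lies within the first, occurred in 10 members (31.2%). It occurred in 1.03% of the genes of the table and 1.01% of its protein-coding genes. The cAMP response element TGACGTCA occurred in 0 of the 32 members and 2.03% of the genes. Before the start alone, the count for TGATGNAA was 10 members (31.2%), against 3.91%. The windows below read 5′ to 3′ along the gene, with the matches in capitals; a match read on the opposite strand appears as its reverse complement.
Asns (chr6:7693209-7693248, minus strand): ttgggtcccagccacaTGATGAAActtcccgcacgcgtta
Atf3 (chr1:191183420-191183459, minus strand): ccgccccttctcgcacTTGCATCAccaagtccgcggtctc
Chac1 (chr2:119351033-119351072, plus strand): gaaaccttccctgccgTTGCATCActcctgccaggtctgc
Nupr1 (chr7:126625557-126625596, minus strand): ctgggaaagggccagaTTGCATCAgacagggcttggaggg
Vldlr (chr19:27216804-27216843, plus strand): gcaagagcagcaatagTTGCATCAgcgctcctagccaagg
Got1 (chr19:43524684-43524723, minus strand): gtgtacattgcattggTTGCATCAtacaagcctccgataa
Pycr1 (chr11:120643828-120643867, minus strand): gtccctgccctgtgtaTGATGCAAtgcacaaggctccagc
Aars (chr8:111033714-111033753, plus strand): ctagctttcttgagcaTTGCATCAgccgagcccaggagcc
Gars (chr6:55037955-55037994, plus strand): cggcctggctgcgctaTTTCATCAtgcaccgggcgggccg
Slc7a11 (chr3:50443637-50443695, minus strand): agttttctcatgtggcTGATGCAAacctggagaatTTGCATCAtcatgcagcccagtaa
The match began between 23 bases (Asns) and 200 bases (Vldlr, in the second of its windows) before the start. Slc7a11 carried a pair of matches on opposite strands. In Trib3, Yars and Slc1a4 the letters lay across or after the start. A match describes the letters and is no evidence of binding.

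The libraries held 26955708 to 38619711 counts, with 20870 to 22198 genes detected in each. Actb, the deleted gene, had 10.4, 58.9 and 50.3 CPM (counts scaled to 1e6 per library after TMM normalization) in KO replicates 1, 2 and 3, against 1818 to 1903 CPM in WT. KO replicate 1 stood apart from the other KO libraries. Its mean chi-square per gene was 173 against KO replicate 2 and 171 against KO replicate 3, whereas KO replicates 2 and 3 gave 26.3 and the WT pairs 17.2 to 31.9, with about 1 expected from sampling noise, so no library was a copy of another. Counts of called members, in all and by role group, are therefore also given without it. The summed level of 8 fibroblast markers was 2755 to 2977 CPM in KO and 1218 to 1389 CPM in WT, with 6 of the 8 higher in KO. Most of the sum came from Col1a1 (mean 1544 CPM in KO and 559.6 CPM in WT) and Vim (1185 CPM in KO and 604 CPM in WT). Pdgfrb and Dcn were not called, at log2 fold changes of 0.15 and -0.47. Col1a2 and Lum, both higher in KO, had only 6 to 13 and 2 to 20 counts in the WT libraries. In bulk RNA fewer cells of a type and less RNA per cell cannot be told apart. Summed markers of macrophages were at 2.28 to 14.7 CPM in KO and 6.82 to 19.2 CPM in WT, and those of endothelium at 0.897 to 2.55 CPM in KO and 1.26 to 1.92 CPM in WT. The summed epithelial markers were higher in every KO library, at 4.76 to 15.8 CPM in KO and 1.82 to 2.26 CPM in WT. Thy1, a fibroblast marker, was near 0, at 0.385 to 0.751 CPM in KO and 0 to 0.0314 CPM in WT, while Ptprc and Adgre1 of macrophages had 0 or 1 count in each library and the epithelial markers parted, with Krt18 at 15.7, 5.42 and 4.62 CPM in KO and 0.157 to 0.202 CPM in WT and Epcam at 0 counts in each KO library and 34 to 48 in WT. Among adipocyte markers, Adipoq, Plin1 and Lep were at 0 to 3 counts in each library, Cidec had 0, 3 and 45 counts in KO replicates 1, 2 and 3 and 0 in WT, and Fabp4 had 109, 8.59 and 16.2 CPM in KO and 9.55, 4.77 and 8.30 CPM in WT. Whether the makeup of the cultures had a part in the values below was not tested.

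Most members had less transcript in KO cells than in WT cells, with a negative log2 fold change in 35 of 40. A gene was called at a Benjamini-Hochberg adjusted p below 0.05 in edgeR's quasi-likelihood test over all genes. Of the 40 members, 19 fell, 1 rose (Vldlr) and 20 were not called, while 28.3% of all tested genes were called, 14.5% lower and 13.8% higher. The list was chosen on this contrast, so the comparison with those shares shows nothing of its own. Gene positions given below are those of the GENCODE annotation of GRCm38. The members' median log2 fold change, KO over WT, was -0.44, against 0.01 for all tested genes. In 25 members all KO libraries lay below all WT libraries (25.8% of all tested genes), in 1 all lay above (23.8%), and in 14 the groups overlapped. Summed over the 40 members, transcripts took 6269, 5480.5 and 5446 CPM in KO replicates 1, 2 and 3, against 8325, 8328 and 7773 CPM in WT replicates 1, 2 and 3, so the highest KO library lay below the lowest WT library.

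Without KO replicate 1, 29 members fell, 1 rose and 10 were not called (22.4% and 19.9% of all genes fell and rose in that fit), and the median stayed at -0.44. The number that fell was lowest, at 13, in the fits that left out WT replicate 1 or WT replicate 2. The call of Vldlr was lost without KO replicate 3 or any 1 WT replicate, with a log2 fold change of 0.40 to 0.49 in those fits. Among the members that fell, 6 lost the call in at least 1 of the fits without 1 library: Psph without WT replicate 1 or 2, Slc38a1 without KO replicate 2 or WT replicate 1 or 2, Wars without KO replicate 3 or any 1 WT replicate, Cth without KO replicate 2 or any 1 WT replicate, Phgdh without KO replicate 2 or 3 or WT replicate 1 or 2, and Psat1 in every fit but that without KO replicate 1. In those fits their log2 fold changes were -0.89 to -0.88 for Psph, -0.64 to -0.48 for Slc38a1, -0.64 to -0.56 for Wars, -0.45 to -0.36 for Cth, -0.44 to -0.36 for Phgdh and -0.52 to -0.42 for Psat1.

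**Figure D1:**
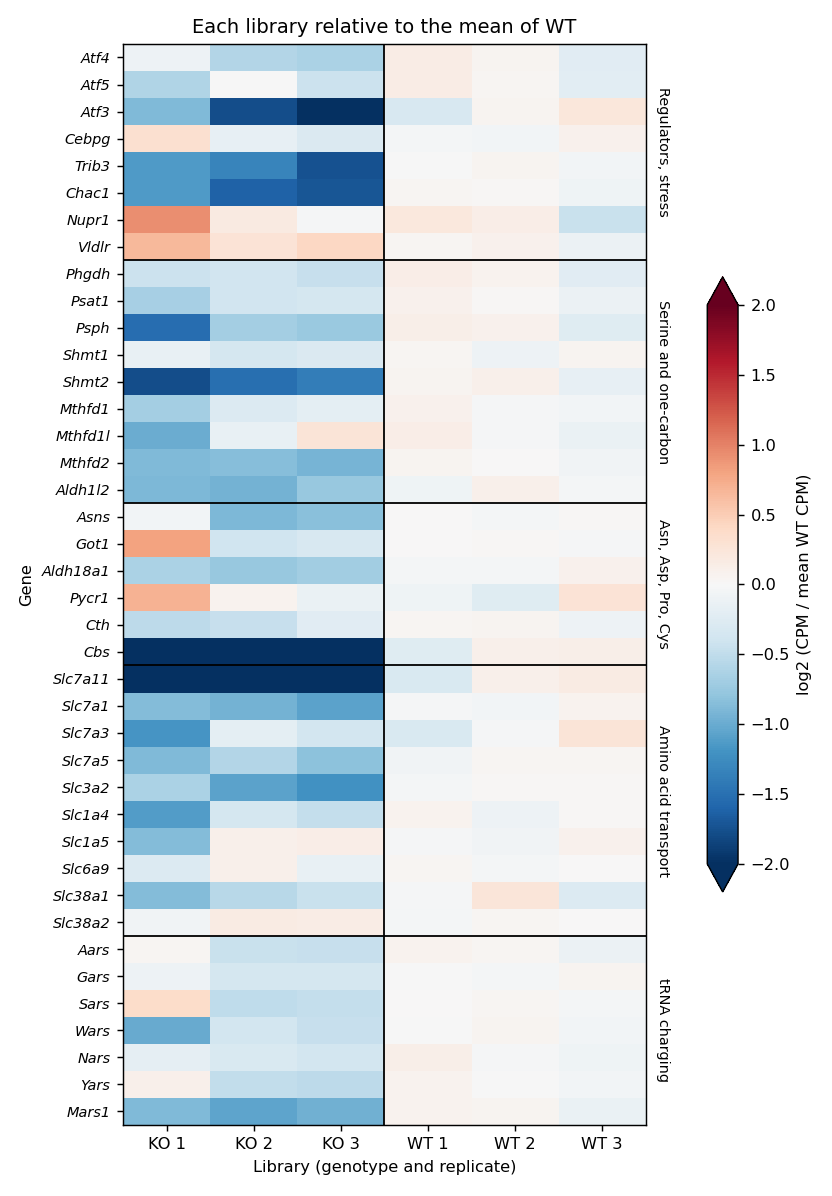
Heat map of the 40 members (rows, grouped by role) in the 6 libraries (columns, KO replicates left of WT replicates), coloured by log2 of CPM over the mean WT CPM and clipped at -2 and 2. Blue prevails in the KO columns, and KO replicate 1 is paler or red for genes such as Got1 and Sars, whose value there lay above all WT libraries.

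The regulators and stress effectors were split. Atf3, Chac1 and Trib3 fell, Vldlr rose, and Atf4, Atf5, Cebpg and Nupr1 were not called, where 14.5% of all tested genes fell and 13.8% rose. Without KO replicate 1, 4 of these 8 members fell and 1 rose, where 22.4% and 19.9% of all tested genes did. Atf4 (ENSMUSG00000042406, chr15:80255184-80257541, plus strand) had 534, 382 and 371 CPM in KO replicates 1, 2 and 3, against 638, 594 and 493 CPM in WT replicates 1, 2 and 3. KO replicates 2 and 3 lay below every WT library, and KO replicate 1 lay within the WT range. Atf4 averaged 429 ± 91.1 CPM in KO and 575 ± 74.2 CPM in WT (SD, n = 3 each), a log2 fold change of -0.42 (SE 0.20), and without KO replicate 1 the value was -0.61 and passed the threshold. Per kilobase of exon, Atf4 had the highest mean level of the members, with 182 CPM per kb in KO and 244 CPM per kb in WT.

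Atf3 (ENSMUSG00000026628, chr1:191170296-191218039, minus strand), a stress-induced relative of ATF4, had 19.7, 10.6 and 8.94 CPM in KO replicates 1, 2 and 3, against 29.2, 37.7 and 42.4 CPM in WT replicates 1, 2 and 3. All KO values were below all WT values, and KO replicate 1 was the highest of its group. The log2 fold change was -1.48 (SE 0.38), 2.79-fold lower, and -1.90 without KO replicate 1. Chac1 (ENSMUSG00000027313, chr2:119351229-119354381, plus strand), an enzyme that degrades glutathione, had 38, 27.3 and 25.4 CPM in KO replicates 1, 2 and 3, against 86.2, 85.3 and 79 CPM in WT replicates 1, 2 and 3. The groups were far apart, with the highest KO library below the lowest WT library, and the log2 fold change was -1.47 (SE 0.18), or -1.66 without KO replicate 1. Trib3 (ENSMUSG00000032715, chr2:152337422-152344032, minus strand), a pseudokinase that ATF4 induces and that feeds back on it, had 64.4, 56.2 and 42.3 CPM in KO replicates 1, 2 and 3, against 140.1, 147 and 136 CPM in WT replicates 1, 2 and 3. Its groups did not overlap either, and the log2 fold change was -1.38 (SE 0.18), or -1.52 without KO replicate 1.

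Vldlr (ENSMUSG00000024924, chr19:27216484-27254231, plus strand), a lipoprotein receptor reported as a target of ATF4 under stress of the endoplasmic reticulum, ran the other way, with 115, 89.2 and 98.5 CPM in KO replicates 1, 2 and 3, against 75.4, 78 and 67.7 CPM in WT replicates 1, 2 and 3. All KO libraries exceeded all WT libraries. Its log2 fold change was 0.46 (SE 0.12), or 0.35 without KO replicate 1. The log2 fold changes of the rest of the group were -0.32 for Atf5, a relative of ATF4 that is also controlled at translation, -0.02 for Cebpg, a C/EBP partner of ATF4, and 0.43 for Nupr1, a small stress-induced nuclear protein. Atf5 ranged over 37.8 to 57.3 CPM in KO and 49.7 to 63.6 CPM in WT, and Cebpg over 63.1 to 95.9 CPM in KO and 74.6 to 82 CPM in WT. Nupr1 ranged over 53.1 to 103 CPM in KO and 39.4 to 62.6 CPM in WT. In all 3 of these the groups overlapped. Nupr1 and Cebpg had their highest value in KO replicate 1, above every WT library.

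**Figure D2:**
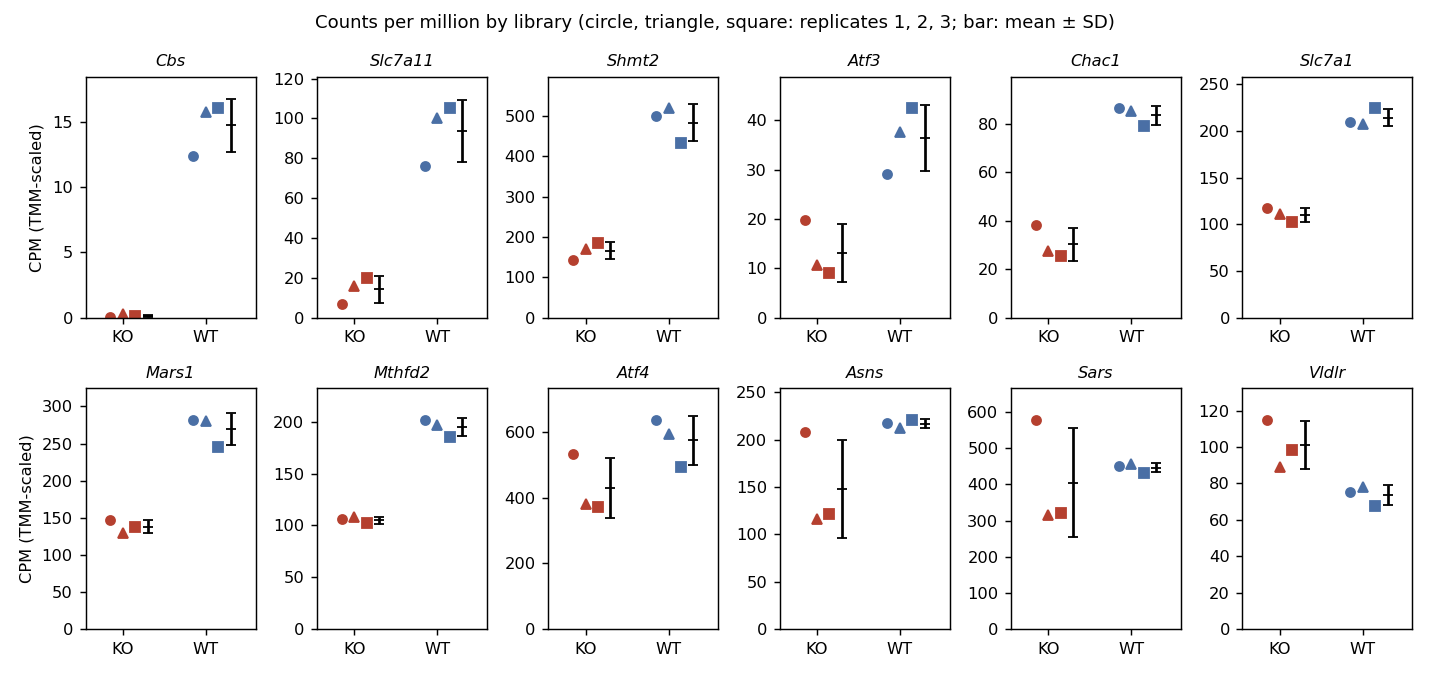
CPM of 12 members by library, KO left of WT in each panel, with circles, triangles and squares for replicates 1, 2 and 3 and a black bar for the mean ± SD (n = 3); each vertical axis starts at 0 and has its own scale. Cbs lies near 0 in all KO libraries, Mthfd2 and Slc7a1 separate with little spread, and in Asns and Sars KO replicate 1 lies well above KO replicates 2 and 3.

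In the serine and folate group 6 of 9 members fell and the other 3 were not called, where 14.5% of all tested genes fell. Without KO replicate 1, 7 of 9 fell, where 22.4% of all tested genes did. The summed level of the group was 1276, 1473 and 1524 CPM in KO and 2136 to 2444 CPM in WT. Shmt2 (ENSMUSG00000025403, chr10:127517123-127522444, minus strand), the mitochondrial enzyme that splits serine into glycine and a carbon unit, had 142, 171 and 185 CPM in KO replicates 1, 2 and 3, against 501, 519 and 433 CPM in WT replicates 1, 2 and 3. Every KO library lay far below every WT library. The means were 166 ± 21.8 CPM in KO and 484 ± 45.2 CPM in WT (SD, n = 3 each), 2.91-fold lower, with a log2 fold change of -1.54 (SE 0.14). The cytosolic form of that enzyme, Shmt1, was not called, at a log2 fold change of -0.26, although its KO libraries too lay below its WT libraries (49.5 to 57.2 CPM in KO and 59.0 to 65.8 CPM in WT).

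The mitochondrial folate path continues with Mthfd2, a dehydrogenase and cyclohydrolase, and with Aldh1l2, which oxidises formyl-folate to carbon dioxide and makes NADPH. Mthfd2 (ENSMUSG00000005667, chr6:83305691-83325908, minus strand) had 106, 108 and 102 CPM in KO replicates 1, 2 and 3, against 202, 197 and 185 CPM in WT replicates 1, 2 and 3. Its libraries differed little within a group and the groups did not overlap, with a log2 fold change of -0.89 (SE 0.05). Aldh1l2 (ENSMUSG00000020256, chr10:83487450-83534140, minus strand) had 158, 152 and 174 CPM in KO replicates 1, 2 and 3, against 278, 317 and 286 CPM in WT replicates 1, 2 and 3. The groups did not overlap, and the log2 fold change was -0.86 (SE 0.08). Of its exon bases 14.1% also belong to D10Wsu102e on the opposite strand, and the strand setting of the counting is not given in the sources used here.

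Mthfd1l, which releases formate in mitochondria, and Mthfd1, its cytosolic counterpart, were not called, at log2 fold changes of -0.20 and -0.36. Mthfd1 ranged over 56.1 to 78.8 CPM in KO and 86.5 to 94.8 CPM in WT, without overlap. Mthfd1l had 35.1, 63.1 and 84.2 CPM in KO cells and 77.1, 69.3 and 63.9 CPM in WT cells, and its KO libraries spread across and beyond the WT range. The enzymes that make serine from a glycolytic intermediate act in the order Phgdh, Psat1, Psph, and all 3 fell. Psph (ENSMUSG00000029446, chr5:129765558-129787449, minus strand), the phosphatase of the last step, had 48.6, 86.4 and 83 CPM in KO replicates 1, 2 and 3, against 151, 148 and 118 CPM in WT replicates 1, 2 and 3. The lowest value was that of KO replicate 1 and the groups did not overlap. The log2 fold change was -0.93 (SE 0.29), or -0.71 without KO replicate 1. Phgdh ranged over 263 to 278 CPM in KO and 309 to 395 CPM in WT, with a log2 fold change of -0.43. Psat1 ranged over 405 to 502 CPM in KO and 589 to 679 CPM in WT, with a log2 fold change of -0.46. In neither did the groups overlap. Phgdh had near-identical copies over 89.5% of its transcript in other annotated genes such as Gm9252, so reads may be divided between them. Psph shares 10.4% of its exon bases with Cct6a on the opposite strand.

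Among the genes that make asparagine, aspartate, proline and cysteine, the path from homocysteine to cysteine held the largest difference of the list. Cbs, Cth and Aldh18a1 fell and the other 3 of the 6 were not called, where 14.5% of all tested genes fell. Without KO replicate 1, 5 of 6 fell, where 22.4% of all tested genes did. Cbs (ENSMUSG00000024039, chr17:31608894-31637238, minus strand), which joins homocysteine and serine, had 1, 8 and 3 counts in KO replicates 1, 2 and 3, against 394, 500 and 474 counts in WT replicates 1, 2 and 3. In CPM these were 0.0375, 0.237 and 0.0815 in KO and 12.4, 15.7 and 16 in WT. The gene was close to the floor of detection (a count of 3, or 0.0815 to 0.113 CPM) in KO and well above it in WT, with a log2 fold change of -6.86 (SE 0.66). Cth (ENSMUSG00000028179, chr3:157894248-157925077, minus strand), which splits the product to yield cysteine, had 50.7, 52.9 and 62.4 CPM in KO replicates 1, 2 and 3, against 75.4, 75.8 and 67.8 CPM in WT replicates 1, 2 and 3. Its groups came close without overlapping, and the log2 fold change was -0.40 (SE 0.11).

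Aldh18a1 (ENSMUSG00000025007, chr19:40550257-40588463, minus strand), which starts proline synthesis from glutamate, had 209.7, 193 and 202 CPM in KO replicates 1, 2 and 3, against 316, 317 and 345 CPM in WT replicates 1, 2 and 3. It varied little within each group and its groups did not overlap, with a log2 fold change of -0.69 (SE 0.05). Pycr1, the mitochondrial enzyme of the last step, was not called, at 0.25, with 48.3, 31.3 and 27.2 CPM in KO and 28.2, 25.2 and 36.2 CPM in WT. The first and last genes of the same short path thus did not have the same call.

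Asns (ENSMUSG00000029752, chr6:7675169-7693254, minus strand), asparagine synthetase and the textbook target of ATF4, had 208, 116 and 121 CPM in KO replicates 1, 2 and 3, against 218, 212 and 221 CPM in WT replicates 1, 2 and 3. All KO libraries lay below all WT libraries, KO replicate 1 only just and KO replicates 2 and 3 by a wide margin. The log2 fold change was -0.55 (SE 0.27) and was not called, whereas without KO replicate 1 it was -0.87 and passed the threshold. Got1, the cytosolic aspartate aminotransferase, had 219.7, 95.6 and 101 CPM in KO cells and 126, 128 and 124 CPM in WT cells. KO replicate 1 lay above every WT library and KO replicates 2 and 3 lay below every one. Its log2 fold change was 0.14 with all libraries, not called, and -0.35 without KO replicate 1, past the threshold in the lower direction.

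In the transport group 5 of 10 genes fell and 5 were not called, where 14.5% of all tested genes fell. Without KO replicate 1, 6 of 10 fell, where 22.4% of all tested genes did. Slc7a11 (ENSMUSG00000027737, chr3:49892526-50443614, minus strand), the exchanger that brings in cystine for glutamate, had 6.72, 16 and 19.7 CPM in KO replicates 1, 2 and 3, against 76.2, 100.1 and 105 CPM in WT replicates 1, 2 and 3. The KO and WT values lay far apart, and KO replicate 1 was the lowest of all. Its mean was 14.1 ± 6.69 CPM in KO and 93.7 ± 15.4 CPM in WT (SD, n = 3 each), 6.6-fold lower, with a log2 fold change of -2.72 (SE 0.50), or -2.39 without KO replicate 1. Slc3a2 (ENSMUSG00000010095, chr19:8706882-8723369, minus strand), the heavy chain that Slc7a11 and Slc7a5 need to reach the cell surface, had 322, 236 and 214 CPM in KO replicates 1, 2 and 3, against 483, 505 and 503 CPM in WT replicates 1, 2 and 3. The groups did not overlap, and the log2 fold change was -0.95 (SE 0.18), or -1.14 without KO replicate 1.

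Slc7a5 (ENSMUSG00000040010, chr8:121881150-121907694, minus strand), the light chain for large neutral amino acids such as leucine, had 137, 168 and 143 CPM in KO replicates 1, 2 and 3, against 239, 258 and 259.8 CPM in WT replicates 1, 2 and 3. Slc7a1 (ENSMUSG00000041313, chr5:148327410-148399904, minus strand), a carrier of arginine and lysine, had 117, 111 and 102 CPM in KO replicates 1, 2 and 3, against 209.8, 207 and 224 CPM in WT replicates 1, 2 and 3. Both showed little spread and no overlap, with log2 fold changes of -0.76 (SE 0.10) for Slc7a5 and -0.96 (SE 0.07) for Slc7a1. Slc38a1, a sodium-coupled carrier of glutamine and other small neutral amino acids, fell as well, at -0.61, and ranged over 60.7 to 81.2 CPM in KO and 92 to 131 CPM in WT.

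Carriers that were not called included Slc38a2, a close relative of Slc38a1 and one known for its rise on amino acid starvation, at 0.08, with 389, 457 and 451 CPM in KO cells and 397, 420.4 and 409 CPM in WT cells. Its groups overlapped. Slc1a4, which carries alanine, serine and cysteine, had 41, 69.3 and 64.2 CPM in KO cells and 93.2, 82.7 and 90.7 CPM in WT cells, without overlap. Its log2 fold change was -0.61, not called, and -0.41 without KO replicate 1, past the threshold. Slc1a5, a glutamine carrier, was at -0.14, Slc6a9, a glycine carrier, at -0.11, and Slc7a3, a second carrier of cationic amino acids, at -0.52, all with overlapping groups. Slc1a5 ranged over 37.6 to 75.6 CPM in KO and 65.5 to 73.2 CPM in WT, and Slc6a9 over 15.8 to 20.5 CPM in KO and 18.6 to 19.7 CPM in WT. Slc6a9 shares 38.6% of its exon bases with other genes. Slc7a3 had only 1.5, 2.96 and 2.64 CPM in KO and 2.76, 3.36 and 4.08 CPM in WT.

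The tRNA synthetases, which attach an amino acid to its tRNA, had a median log2 fold change of -0.28 with all libraries and -0.45 without KO replicate 1. Mars1 and Wars fell with all libraries, whereas 7 of 7 fell without KO replicate 1. Over all tested genes the share that fell was 14.5% with all libraries and 22.4% without KO replicate 1. Mars1 (ENSMUSG00000040354, chr10:127296221-127311786, minus strand), for methionine, had 147, 129.7 and 138 CPM in KO replicates 1, 2 and 3, against 282, 281 and 245 CPM in WT replicates 1, 2 and 3. The groups were well apart, and the log2 fold change was -0.96 (SE 0.08). Exon bases shared with Ddit3 on the opposite strand are 1.99% of its exons. Wars (ENSMUSG00000021266, chr12:108860030-108894174, minus strand), for tryptophan, had 37.1, 57.9 and 53.9 CPM in KO replicates 1, 2 and 3, against 73.8, 77.3 and 71.9 CPM in WT replicates 1, 2 and 3. KO replicate 1 was the lowest library and the groups did not overlap, with a log2 fold change of -0.58 (SE 0.20).

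Yars (ENSMUSG00000028811, chr4:129189760-129219607, plus strand), for tyrosine, had 203, 134 and 131 CPM in KO replicates 1, 2 and 3, against 198, 187 and 181 CPM in WT replicates 1, 2 and 3. KO replicate 1 exceeded every WT library and the other KO libraries lay below every one. The log2 fold change was -0.28 (SE 0.21), not called, or -0.51 without KO replicate 1. Nars (ENSMUSG00000024587, chr18:64499647-64516652, minus strand), for asparagine, had 212, 194 and 185 CPM in KO replicates 1, 2 and 3, against 258, 235 and 224 CPM in WT replicates 1, 2 and 3. Its groups did not overlap, but the log2 fold change of -0.28 (SE 0.08) was not called, and it was -0.34 without KO replicate 1.

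Sars, for serine, had 579, 315 and 320 CPM in KO cells and 451, 457 and 433 CPM in WT cells, again with KO replicate 1 on top of all 6 libraries. Its log2 fold change was -0.14 with all libraries and -0.49 without KO replicate 1. Aars, for alanine, was at -0.27, or -0.45 without KO replicate 1, and Gars, for glycine, at -0.27, or -0.35. Aars ranged over 498 to 699 CPM in KO and 629 to 714 CPM in WT, and the groups overlapped. Gars ranged over 206 to 244 CPM in KO and 256 to 273 CPM in WT, and they did not. Without KO replicate 1 the values of Sars, Aars, Gars, Nars and Yars passed the threshold. Aars shares 15.1% of its exon bases with other genes. The sum over the 7 synthetases was 2121, 1536 and 1533 CPM in KO and 2237, 2196 and 2057 CPM in WT, so that KO replicate 1 lay within the WT range and the other KO libraries below it.

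Levels per kilobase of exon put the other abundant members behind Atf4. In WT these were Shmt2 at 156 CPM per kb, Psat1 at 151, Phgdh at 146 and Slc3a2 at 141. In KO the same genes had 53.4 CPM per kb for Shmt2, 109.5 for Psat1, 108 for Phgdh and 72.9 for Slc3a2. On this measure Shmt2, second only to Atf4 in WT, stood below Psat1, Phgdh and Slc3a2 in KO. The length used takes in every annotated exon base of a gene, 4254 for Psat1 and 3109 for Shmt2. Their longest coding transcripts have 2617 and 2289 bases, so the order of Shmt2 and Psat1 in WT depends on the length chosen. At the low end were Slc7a3, with 0.625 CPM per kb in KO and 0.899 in WT, and Cbs, with 0.0159 CPM per kb in KO and 1.96 in WT. These ranks compare means of 3 libraries, and neighbours in the order were not tested against each other.

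The side on which KO replicate 1 departed from the other KO libraries differed among the role groups, a difference that was not tested. It was above both of them in 20 members, below both in 17 and between them in 3, where all tested genes were at 43.9% above and 44.4% below. Of the regulators 7 of 8 were above, and of the synthetases 6 of 7. Of the transport genes 8 of 10 were below, and of the serine and folate genes 5 of 9 were below and 1 above. The ratio of KO replicate 1 to the mean of KO replicates 2 and 3 ran from 0.236 (Cbs) to 2.23 (Got1). KO replicates 2 and 3 both lay below every WT library in 31 of the 40 members, 33.7% of all tested genes doing so.

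**Figure D3:**
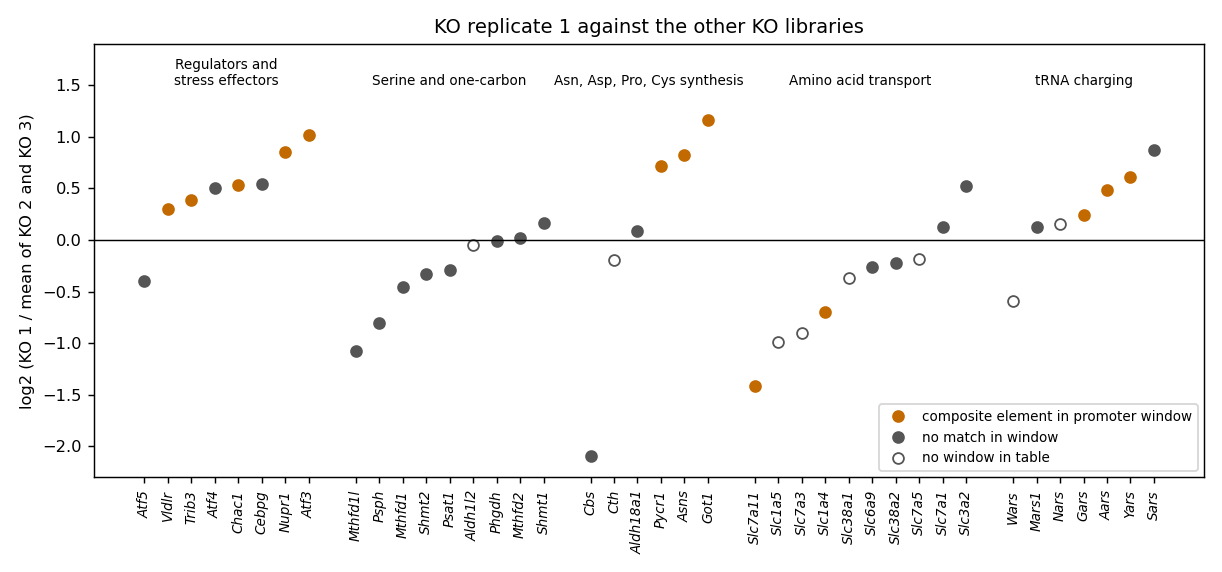
Log2 ratio of KO replicate 1 to the mean of KO replicates 2 and 3 for each member, by role group, with orange for members whose promoter window holds TGATGNAA, grey for those whose window does not and open circles for members without a window. Regulators and synthetases lie mostly above the line at 0 and transport genes mostly below it, and 11 of the 13 orange points are above it.

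Genes of the same pathways that are not members were read from 7 lists, 123 genes in all, of which 119 were tested. Here 25 fell (21.0%, against 14.5% of all tested genes) and 10 rose (8.4%, against 13.8%), and the median log2 fold change was -0.21, against 0.01 for all tested genes. Without KO replicate 1, 44 fell and 15 rose, where 22.4% and 19.9% of all tested genes did. Without WT replicate 2 there were 15 lower and 5 higher, without WT replicate 3 there were 16 lower, and without WT replicate 1 there were 6 higher. Over all genes, 2181 were lower and 2074 higher with all libraries. Those counts were 1295 lower and 1003 higher without WT replicate 2, 1531 lower without WT replicate 3, and 1225 higher without WT replicate 1. All adjusted p-values that follow are Benjamini-Hochberg values of edgeR's quasi-likelihood test over all genes.

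Of 12 other targets of ATF4, 6 fell (50%, against 14.5% of all tested genes). Without KO replicate 1, 10 fell, where 22.4% of all tested genes did. Stc2, a secreted glycoprotein, had 2 counts in each KO library and 0.0544 to 0.0751 CPM there, against 2.32, 4.05 and 3.54 CPM in WT (log2 fold change -5.65 (SE 0.27), adjusted p = 0.000177 by edgeR). Its KO counts lay below the floor of 3 counts, so the size of this difference is uncertain. Pck2, which makes phosphoenolpyruvate in mitochondria, averaged 89.8 ± 1.76 CPM in KO and 192 ± 7.33 CPM in WT (SD, n = 3 each; log2 fold change -1.09 (SE 0.04), adjusted p = 0.000345 by edgeR). Sesn2, a sensor of leucine that restrains mTORC1, averaged 53.1 ± 7.15 CPM in KO and 124 ± 9.6 CPM in WT (SD, n = 3 each; log2 fold change -1.23 (SE 0.13), adjusted p = 0.000733 by edgeR). These 3 stood apart from WT in every KO library.

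Ddit3, the gene of the stress factor CHOP, is named here after its values were seen. It had 569, 69.2 and 60.4 CPM in KO replicates 1, 2 and 3, against 109, 105 and 99.3 CPM in WT replicates 1, 2 and 3. KO replicate 1 was 8.78 times the mean of the other KO libraries, which lay below all WT libraries. The log2 fold change was 1.16 (SE 1.05) with all libraries (adjusted p = 0.313 by edgeR) and -0.69 without KO replicate 1 (adjusted p = 0.00091 by edgeR). Of the exon bases of Ddit3, 10.9% also belong to other annotated entries. These are 105 in a second Ddit3 entry on the same strand, which was not counted, and 68 in Mars1 and 13 in Gm4189 on the opposite strand.

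Upstream of ATF4, 1 of 14 genes for eIF2 kinases, their partners, eIF2, its exchange factor and its phosphatase subunits fell (7.14%, below the 14.5% of all tested genes). This was Impact, an inhibitor of the kinase GCN2, at 51.4, 34.1 and 33.1 CPM in KO cells and 67.4, 70.5 and 58.2 CPM in WT cells (log2 fold change -0.73 (SE 0.22), adjusted p = 0.0263 by edgeR). Its call was lost in each fit without 1 library other than KO replicate 1, with adjusted p between 0.0542 and 0.0987. Without KO replicate 1 the group had 5 of 14 lower, a share above the 22.4% of all tested genes in that fit. Of the 16 other genes of cytosolic tRNA charging, Lars, for leucine, and Iars, for isoleucine, fell, at log2 fold changes of -0.58 and -0.56 (adjusted p = 0.0391 and 0.00975 by edgeR), that is 12.5% of the list, and the median was 0.00. In edgeR fits without any 1 WT replicate Lars missed the threshold (adjusted p up to 0.124), as did Iars without WT replicate 2 (adjusted p = 0.0526). Of the 17 mitochondrial synthetases 2 fell, Cars2 for cysteine, at -1.01, and Mars2 for methionine, at -0.74 (adjusted p = 0.0268 and 0.0092 by edgeR), 11.8% of the list, with a median of -0.28. Without KO replicate 1 the cytosolic group had 4 of 16 lower and 2 higher and the mitochondrial group 4 of 17 lower. In that fit 22.4% of all tested genes were lower and 19.9% higher. Cars2 lost its call without any 1 WT replicate, with adjusted p up to 0.0989.

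Folate and methionine genes outside the list were called in both directions, 3 higher (13.6%, against 13.8% of all tested genes) and 5 lower (22.7%, against 14.5%) of 22 tested. Without KO replicate 1, 4 were higher and 7 lower, where 19.9% and 22.4% of all tested genes were. Fpgs, which adds glutamate to folates and so keeps them in the cell, fell (log2 fold change -0.67 (SE 0.05), adjusted p = 0.00565), and Ggh, which removes that glutamate, rose (0.69 (SE 0.08), adjusted p = 0.00751). Fpgs had 20.6, 21.1 and 20.8 CPM in KO cells and 33.1, 35.1 and 31.1 CPM in WT cells, and Ggh had 26.3, 30.3 and 27.5 CPM in KO cells and 18.1, 16.1 and 17.9 CPM in WT cells. Neither pair of groups overlapped. Ahcy, which hydrolyses adenosylhomocysteine, fell (-0.88, adjusted p = 0.00339) and its relative Ahcyl1 rose (1.03, adjusted p = 0.0117). Mthfd2l, a mitochondrial relative of Mthfd2, rose (0.63, adjusted p = 0.0229), at 53.3, 70 and 73.4 CPM in KO cells and 45.2, 36.8 and 45.4 CPM in WT cells. Gldc, the decarboxylase of the glycine cleavage system, fell (-0.89, adjusted p = 0.0137). Mthfd2l lost its call in each fit without 1 library other than KO replicate 1 (adjusted p up to 0.106), and Ahcyl1 and Gldc lost theirs without WT replicate 1 or 2 (adjusted p up to 0.0592 and 0.0643).

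Among 20 other amino acid carriers 3 rose (15%) and 6 fell (30.0%), against 13.8% and 14.5% of all tested genes. Without KO replicate 1, 4 rose and 8 fell, where 19.9% and 22.4% of all tested genes did. Slc38a4, a carrier of small neutral amino acids, had 2.4, 1.75 and 2.53 CPM in KO cells and 153, 130.1 and 138 CPM in WT cells (log2 fold change -5.98 (SE 0.18), adjusted p = 7.87e-06 by edgeR). Slc7a2, a relative of Slc7a1 for cationic amino acids, had 123, 107 and 116 CPM in KO cells and 316, 289 and 294 CPM in WT cells (-1.37 (SE 0.07), adjusted p = 0.000226 by edgeR). Both fell with no overlap. The glutamate carriers parted, with Slc1a2 at -2.33 and Slc1a3 at 2.18 (adjusted p = 0.00132 and 0.00132 by edgeR). Slc43a1, a carrier of large neutral amino acids, rose by 1.99 on the log2 scale and Slc7a6, a partner of Slc3a2, by 0.53 (adjusted p = 0.00111 and 0.00872 by edgeR). In the fit that left out WT replicate 2, Slc7a6 missed the threshold, at adjusted p = 0.0572 by edgeR.

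Of 18 other enzymes of amino acid metabolism 4 rose (22.2%) and 3 fell (16.7%), against 13.8% and 14.5% of all tested genes. Without KO replicate 1, 5 rose and 6 fell, where 19.9% and 22.4% of all tested genes did. Glul, glutamine synthetase, rose by 0.95 on the log2 scale, with 198, 198 and 168 CPM in KO cells and 87.4, 97.4 and 108 CPM in WT cells (adjusted p = 0.00181 by edgeR). Bcat2, which takes the amino group off branched-chain amino acids in mitochondria, rose by 0.62 on the log2 scale (adjusted p = 0.0113 by edgeR). Odc1, the first enzyme of polyamine synthesis, fell, with 36.8, 68.5 and 56.7 CPM in KO cells and 179, 176 and 138 CPM in WT cells (log2 fold change -1.60 (SE 0.29), adjusted p = 0.00239 by edgeR). Gpt, alanine aminotransferase, and Aldh4a1, which acts in proline breakdown, fell as well, at -0.85 and -0.57 (adjusted p = 0.0242 and 0.0479 by edgeR). Some of these missed the threshold when 1 library was left out: Bcat2 without WT replicate 1 (adjusted p = 0.0526 by edgeR), Gpt without KO replicate 3 or any 1 WT replicate (up to 0.106), and Aldh4a1 without KO replicate 2 or 3 or WT replicate 2 or 3 (up to 0.163).

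**Figure D4:**
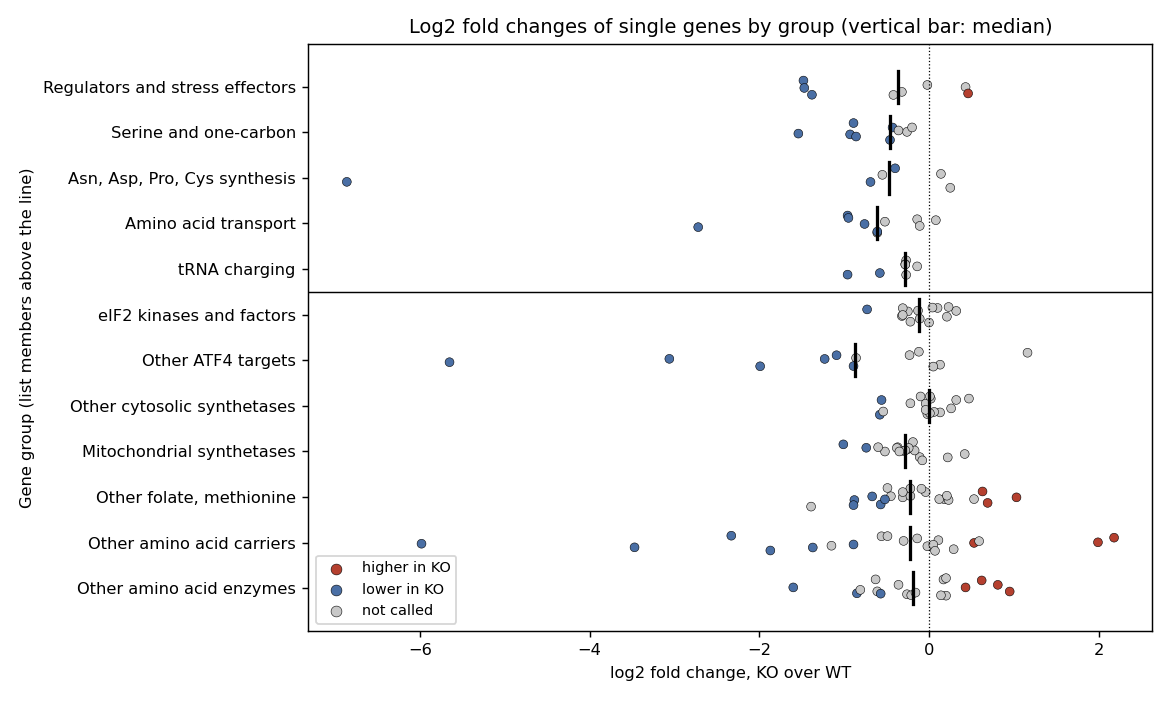
Log2 fold change, KO over WT, of each tested gene in the 5 role groups of members (above the line) and the 7 lists of related genes (below it), with red for genes higher in KO, blue for genes lower in KO, grey for genes not called and a vertical bar at each group's median. With all libraries, medians run from -0.61 (transport) to -0.28 (tRNA charging) among members and from -0.88 (other targets of ATF4) to 0.00 (other cytosolic synthetases) among the related lists.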

How the data were processed

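The labels' protocols give a TriZol LS and RNeasy extraction of total RNA and a TruSeq v2 library kit. The authors deposited raw read counts per Ensembl gene, 1 file per library. TopHat2 2.1.0, HTSeq, DESeq2 and build GRCm38.p4 are named in the submitters' processing notes. The annotation release and the strand setting were not stated there. Of 46603 identifiers, 46091 matched GENCODE M21, which gave symbols, positions and exon lengths.

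Counts were analysed in R 4.3.3 with edgeR 4.0.16 (filterByExpr by group, TMM, quasi-likelihood F test, two-sided, group as the only term, Benjamini-Hochberg over 15009 genes, threshold 0.05). Log2 fold changes are KO over WT from that fit. The SE belongs to the difference between group means of log2 CPM, computed with a pseudocount of 0.5 counts. A count of 3 was taken as the floor, which covers counting error only. The chi-square of library pairs used genes with at least 20 counts in the pair. Copies were matches of at least 95% identity over at least 100 bases. The fit was also run on counts simulated from its own dispersions, a check of the code that does not bear on the values above.

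Members and lists were chosen with earlier results of these data known. Every member is named with its log2 fold change, with values in every library for Atf4 and the 4 largest differences of each role group, and from each related list up to 3 called genes in each direction with the smallest p. Of these, 1 gene taken by this rule is not reported here. The alternatives were other scalings (RLE, upper quartile, library totals), other tests (DESeq2 1.42.0, limma-voom 3.58.1), no filter or a CPM of at least 1 in 3 libraries, a replicate block, each library left out in turn, and the motif search before the start alone.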

Additional observations from a re-analysis of the deposited data

How the results depend on the processing

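Every member that was called kept its sign in all 14 alternative fits, and 13 of the 19 members that fell kept the call in each: Atf3, Trib3, Chac1, Shmt2, Mthfd2, Aldh1l2, Aldh18a1, Cbs, Slc7a11, Slc7a1, Slc7a5, Slc3a2 and Mars1. Scaling by library totals moved the median of all tested genes to -0.193 and that of the members to -0.64, with 28 members lower, 0 higher, 39 related genes lower, and 1351 genes higher and 3347 lower over all genes. Vldlr was not called without a filter on low counts (0 higher) or with a replicate block (0 higher). Leaving out 1 library at a time gave 13 to 29 members lower and 0 to 1 higher, 15 to 44 related genes lower and 5 to 15 higher, 1295 to 3462 genes lower and 1003 to 3075 higher over all genes, and a members' median of -0.52 to -0.40. With the replicate number as a block, 14 members and 22 related genes fell and 7 related genes rose. Equally numbered KO and WT libraries had deviations correlating at -0.0887, 0.0379 and -0.124 across genes. These values gave no sign of a pairing by number, but with so few libraries they cannot exclude one. DESeq2 called 5239 genes against 4255. The cause of these shifts was not tested. The number of libraries, 3 per group, limits the precision of every value.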

Other observations

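Members whose promoter window holds TGATGNAA were set against the departure of KO replicate 1, a description chosen after the values were seen and given without a test. Of the 13 members with these letters, 11 were higher in KO replicate 1 than in KO replicates 2 and 3 (Atf3, Trib3, Chac1, Nupr1, Vldlr, Asns, Got1, Pycr1, Aars, Gars and Yars) and 2 were lower (Slc7a11 and Slc1a4), with a median ratio of 1.44 to the mean of KO replicates 2 and 3. Of the 19 members whose window lacks the letters, 8 were higher and 9 lower, with a median ratio of 0.991. Among regulators and synthetases of this kind, Atf4, Cebpg, Sars and Mars1 were higher and Atf5 was lower. The letters and the role group were not separated. Of the 8 members with no window in the table, 1 was higher and 6 lower, with a median ratio of 0.827. Over all tested genes, 49.8% of the 291 with the letters and 44.0% of the 10511 without them were higher in KO replicate 1. Slc7a11, with matches on both strands, was thus among the members lowest in KO replicate 1, at 0.376 times the mean of the other KO libraries, while Ddit3 in the same library was at 8.78 times that mean.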
